A study of Mus musculus with 16 samples.

Results

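The integrins of leukocytes are described here through 10 genes that encode their chains: Itgam, Itgb2, Itgal, Itgax, Itga4, Itgb7, Itgb1, Itga6, Itgav and Itgb5. They were taken by gene symbol from a table of 21878 mRNAs. The genes were chosen by their place in the integrin family and with the measured counts and FPKM values of EAE against PBS-treated mice already known, so this difference is given as a description without a test. All 10 were found, and all 10 reached the minimum of 16 counts over the 16 libraries that left 17885 mRNAs in the fit.

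Per the labels and methods, RNA-seq was performed on microglia sorted as CD11b+/CD45int cells from the brains of female wild-type C57BL/6 mice aged 8 weeks. There was 1 library of stranded total RNA per mouse. EAE (experimental autoimmune encephalomyelitis, the mouse model of multiple sclerosis) was induced in 8 mice with a MOG peptide in complete Freund's adjuvant and pertussis toxin (200 ng), and brains were taken on day 14, at the peak of disease. The 8 control mice received PBS, so that the effects of MOG, adjuvant and toxin cannot be told apart. The treatment label gives 200 µg of MOG, an amount that differs from the one in the methods, and the last residue it names rises from mouse to mouse. Libraries are named EAE 1 to EAE 8 and PBS 1 to PBS 8, with 24587443–30244215 and 26031889–34184576 counts in total, respectively.

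Integrins are receptors made of an α chain and a β chain, and a chain usually reaches the cell surface only with its partner. The β2 integrins are made by leukocytes: Itgb2 (CD18) pairs with Itgam (CD11b) in the complement receptor Mac-1, with Itgal (CD11a) in LFA-1, with Itgax (CD11c) and with Itgad (CD11d). Itga4 pairs with Itgb1 in VLA-4, which binds Vcam1 and is the target of natalizumab in multiple sclerosis, and with Itgb7 in the gut homing receptor of lymphocytes. Itgb1, Itga6, Itgav and Itgb5 are also made by many other cells, including glia and blood vessels. In the brain, CD11b marks microglia, and neutrophils and monocytes carry it as well. Per the methods, the cells were sorted with an antibody to CD11b, the product of Itgam, and with one to CD45, the product of Ptprc.

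The labelled cell type was compared with marker genes. All 17 microglia markers had counts, and their summed FPKM (fragments per kilobase of gene, scaled to library depth) was 223–364 with a median of 319 in EAE libraries and 207–344 with a median of 245 in PBS libraries. The sum of 12 neuronal markers was 1581–1806 and 1770–1924, respectively, above that of the microglia markers in every library, and the sum of 10 astrocyte markers was 1191–1799 and 1378–1640. By these markers the RNA was thus not that of microglia alone, despite the label. It held transcripts of other brain cells that also make Itgb1, Itga6, Itgav and Itgb5. The levels given here are those of the whole RNA and cannot be assigned to microglia. In bulk RNA a change in the number of cells of a type and in the RNA per cell cannot be told apart. Ptprc had an FPKM of 1.76 ± 0.259 (SD, n = 8) in EAE and 1.51 ± 0.191 in PBS-treated mice (log2FC 0.17, SE 0.10, adjusted p = 0.406 in edgeR's quasi-likelihood test).

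In the GENCODE M21 annotation of GRCm38, the genes for 3 of the α chains lie in 1 stretch of chromosome 7: Itgal at 127296260–127335138, Itgam at 128062640–128118491 and Itgax at 128129547–128150657, all on the plus strand. Itgad follows at 128154376–128223816. Itgb2 lies on chromosome 10 (77530252–77565708), Itgb1 on chromosome 8 (128685654–128733200), Itgb5 on chromosome 16 (33829665–33949338) and Itgb7 on chromosome 15 (102215995–102231944, minus strand). Itga6 (71745616–71858416), Itga4 (79255426–79333123) and Itgav (83724397–83806916) lie on chromosome 2. Within Itgam, 72.4% of the 50-base windows of its longest coding transcript also occur in Gm49368, an overlapping gene on the same strand that has no row in the deposited table. Itgax shares 9.61% of such windows with Itgad, so a part of their reads could have matched both genes. How such reads were counted is not given in the sources used here. The share was 8.17% for Itgb5 (with Gm38317), 6.50% for Itga6 (with Gm29397) and at most 1.16% for the rest of the 10 genes. Itga4 overlaps Cerkl on the other strand, and the strand setting of the counting is not given in the sources used here.

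The sequence before the start of Itgam is shown because Itgam is the gene in which the groups stood apart, and PU.1, a factor that myeloid cells need, binds DNA with the core GAGGAA. RefSeq (GRCm38.p6) gave a promoter for 7 of the 10 genes, from 250 bases before to 50 bases after the start. Itgam, Itgb1, Itgav and Itgb7 held GAGGAA on either strand, and Itgax, Itga4 and Itgb5 did not. Of 32851 promoters of the same length, 28.3% held it. The 250 bases before Itgam lie at chr7:128062390-128062639 on the plus strand, and the 30 bases of Itgav at chr2:83724167-83724196, also on the plus strand. Capitals mark GAGGAA or, on the other strand, TTCCTC.
Itgam: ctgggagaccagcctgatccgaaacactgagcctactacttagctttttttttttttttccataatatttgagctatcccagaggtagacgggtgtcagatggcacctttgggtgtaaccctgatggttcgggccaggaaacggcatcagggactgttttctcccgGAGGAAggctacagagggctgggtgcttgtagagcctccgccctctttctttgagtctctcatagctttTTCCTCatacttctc
Itgav: cagaagtgcctgGAGGAAccagggaacggg
Counted from the start used for each promoter, the matches in the sequence shown begin at −84 and −15 for Itgam and at −218 for Itgav. The RefSeq spans of Itgav and Itgb7 begin farther upstream, at 83722303 and, on the minus strand, 102233405. The promoters of these genes thus lie within their RefSeq spans. Itgam has a further match at position 32, after its start, and Itgav 1 at −7, which are not shown. These are matches of letters, and binding was not measured.

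The 10 mRNAs were present at levels that spanned about 2 orders of magnitude. In EAE mice the mean FPKM was 21.2 ± 2.77 (SD, n = 8) for Itgav, 20.3 ± 0.794 for Itgb1, 14.4 ± 4.32 for Itgb5, 8.24 ± 0.764 for Itgam, 6.98 ± 1.20 for Itga6 and 5.96 ± 0.316 for Itgb2. Itga4 followed at 2.62 ± 0.433, and Itgb7 (0.684 ± 0.138), Itgal (0.423 ± 0.0978) and Itgax (0.182 ± 0.0992) were low. Itgav, Itgb1 and Itgb5, which are not restricted to leukocytes, stood at the top, and Itgal and Itgax, both α partners of Itgb2, at the bottom. In PBS-treated mice the order was the same, except that Itga6 (6.35 ± 0.868) stood before Itgam (5.77 ± 0.466).

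**Figure D1:**
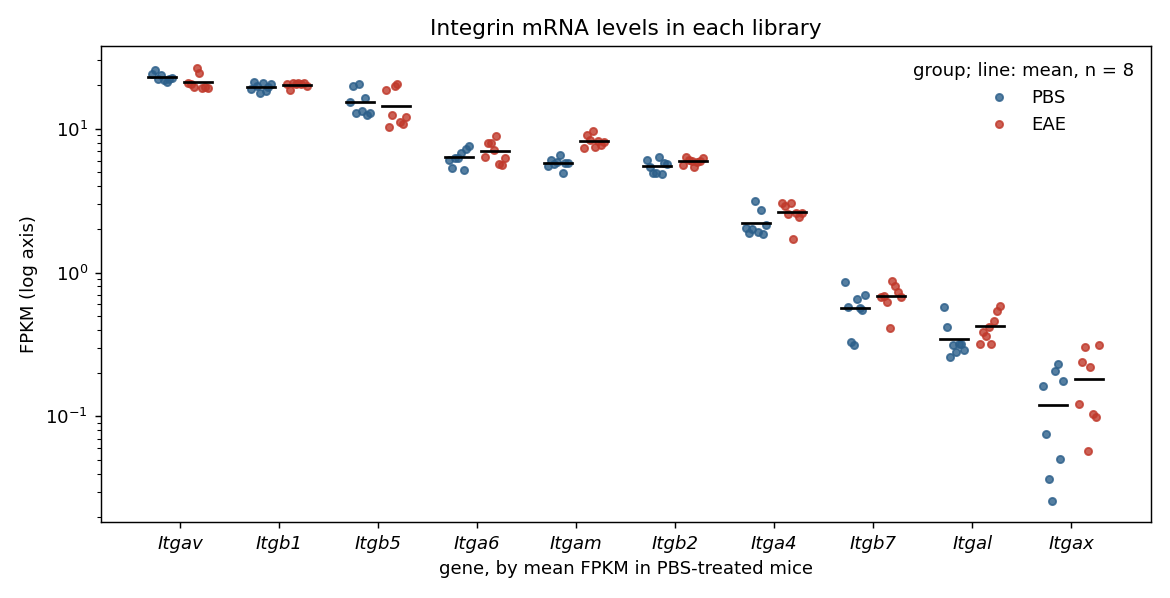
Level of each integrin mRNA in FPKM (log axis) in every library, with PBS libraries in blue, EAE libraries in red and the mean of 8 libraries as a line. The genes are ordered by their mean in PBS-treated mice, from Itgav at 22.9 to Itgax at 0.121, and Itgam is the gene whose 8 red points all lie above its blue points.

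Neighbours in this order were compared within each group with exact permutation tests on paired log2(FPKM + 0.01) values (two-sided), adjusted over the 9 pairs of a group. The smallest p that 8 libraries allow is 0.0078. These tests measure the spread between mice and not the effect of the gene length used for FPKM. Counts and FPKM values imply a length of 5708 bases for Itgb7 and 6436 for Itga6, while their longest coding transcripts have 2683 and 4310. The order of levels thus depends on these lengths. In EAE mice 6 of 9 neighbouring pairs differed on FPKM. Itgav and Itgb1 (adjusted p = 0.461, exact permutation test), Itgam and Itga6 (0.0603) and Itga6 and Itgb2 (0.0703) did not pass. In PBS-treated mice 7 of 9 pairs differed, and Itga6 and Itgam (adjusted p = 0.114, exact permutation test) and Itgam and Itgb2 (0.141) did not pass. Itgav was above Itgb1 in 8 of 8 PBS libraries, by 0.22 ± 0.12 (SD) on the log2 scale (adjusted p = 0.0141, exact permutation test), and in 4 of 8 EAE libraries.

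Itgam encodes the α chain of Mac-1, with which microglia and phagocytes bind iC3b, fibrinogen and Icam1. Its FPKM was 7.39 in the lowest, 8.17 in the median and 9.61 in the highest EAE library, against 4.94, 5.79 and 6.56 in the PBS libraries. The groups did not overlap: EAE 1, the lowest EAE library, lay above PBS 5, the highest PBS library. FPKM values of 29 of the 17885 mRNAs (0.162%) were separated in this direction, and 0.263% in either direction. The counts behind Itgam were 916–1168 in EAE and 644–1004 in PBS libraries. Its log2FC in the edgeR fit was 0.46 (SE 0.07), or 1.38-fold, which is under the |log2FC| of 1 required of a DEmRNA. Among the 10 genes Itgam alone reached an adjusted p under 0.05, where the share over all mRNAs was 2.42% in either direction, 0.660% higher and 1.76% lower. Nothing is read from this count, because the difference between the groups entered the choice of the genes.

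Itgb2 encodes the β chain that Itgam needs. Its FPKM was 5.46 in the lowest, 6.0 in the median and 6.41 in the highest EAE library, and 4.84, 5.53 and 6.39 in the PBS libraries. The groups overlapped, although 7 of 8 EAE libraries lay above the PBS median. The log2FC was 0.06 (SE 0.07), from 438–493 counts in EAE and 396–616 in PBS libraries. The ratio of Itgam to Itgb2 was therefore examined within each library, where depth cancels. On FPKM values it was 1.28–1.6 with a median of 1.38 in EAE mice and 0.911–1.18 with a median of 1.03 in PBS-treated mice, without overlap. Of all mRNAs, 5 (0.0280%) had a ratio to Itgb2 that was higher in every EAE library than in any PBS library, and 0.302% had one that was lower. The Itgam ratio follows from the level of Itgam described above and is not a further piece of evidence.

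**Figure D2:**
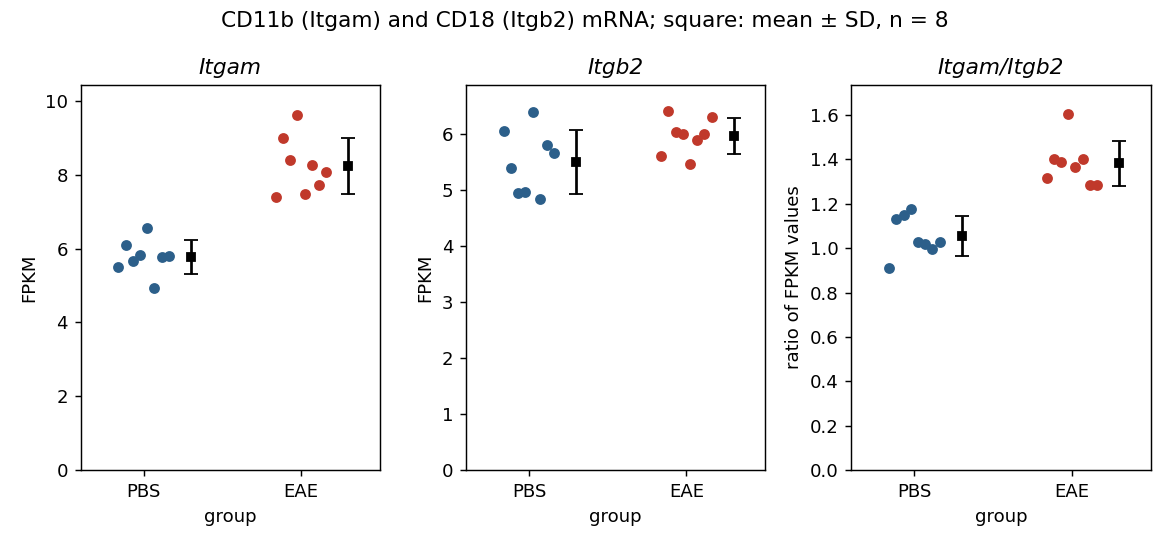
Itgam (FPKM), Itgb2 (FPKM) and their ratio in the 8 PBS (blue) and 8 EAE (red) libraries, with the mean ± SD as a square with bars. Itgam and the ratio do not overlap between the groups, while Itgb2 spans 4.84–6.39 in PBS and 5.46–6.41 in EAE libraries.

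The other α chains of the β2 family were present at a small fraction of Itgam. Itgal, the α chain of LFA-1 on lymphocytes and other leukocytes, had an FPKM of 0.317 in the lowest, 0.404 in the median and 0.583 in the highest EAE library and of 0.258, 0.316 and 0.574 in the PBS libraries. All 8 EAE libraries lay above the PBS median, and PBS 1 lay near the top of the EAE range. The log2FC of Itgal was 0.24 (SE 0.19), from 46–80 and 38–81 counts. Itgax, which dendritic cells and some activated microglia make, had 6–32 counts in EAE and 3–27 in PBS libraries, with FPKM values of 0.0574–0.314 and 0.0259–0.232. Its log2FC of 0.55 had the widest error of the 10 genes (SE 0.44), and its coefficient of variation was 54.4% in EAE and 68.2% in PBS-treated mice. At these counts a change of the size seen in Itgam was not detectable for Itgax.

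Itgad, which is not 1 of the 10 genes, completes the set of Itgb2 partners. It had an FPKM of 0.476 ± 0.118 in EAE and 0.670 ± 0.276 in PBS-treated mice (log2FC −0.54, SE 0.25, adjusted p = 0.260 in edgeR's quasi-likelihood test). Itgam made up 84.1–91.9% of the summed FPKM of the 4 α chains in EAE libraries (median 88.6%) and 78.8–91.2% in PBS libraries (median 82.5%). The share of Itgad was 3.52–6.61% and 3.42–15.0%, that of Itgal 3.78–6.06% and 3.60–8.37%, and that of Itgax 0.549–3.27% and 0.406–3.70%, respectively. The shares of each chain overlapped between the groups. The summed FPKM of Itgam, Itgal and Itgax per FPKM of Itgb2 was 1.39–1.68 in EAE and 1.03–1.24 in PBS libraries, and with Itgad it was 1.49–1.74 and 1.13–1.42, again without overlap.

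For the lymphocyte integrins of the α4 and β7 chains the groups overlapped. Itga4, which lets leukocytes cross the blood-brain barrier with Itgb1, had an FPKM of 1.72 in the lowest, 2.60 in the median and 3.06 in the highest EAE library. The corresponding PBS values were 1.87, 2.02 and 3.14. EAE 5 was the lowest of all 16 libraries and PBS 4 the highest, while 7 of 8 EAE libraries lay above the PBS median. The log2FC of Itga4 was 0.19 (SE 0.12), from 512–798 and 521–888 counts. Itgb7, which pairs with Itga4 and with Itgae, had FPKM values of 0.411–0.875 (median 0.680) in EAE and 0.311–0.861 (median 0.572) in PBS libraries, and a log2FC of 0.22 (SE 0.19). The ratio of Itga4 to Itgb7 was 1.97–7.40 (median 4.01) in EAE and 2.36–10.1 (median 3.33) in PBS libraries.

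Itgb1, the common β chain of many matrix receptors and of VLA-4, was the least variable of the 10 genes in EAE mice and came after Itgav in PBS-treated mice. Its FPKM was 18.5 in the lowest, 20.6 in the median and 20.9 in the highest EAE library, against 17.8, 19.8 and 21.2 in PBS libraries, with a coefficient of variation of 3.91% and 6.31% (6.24% for Itgav in PBS-treated mice). The log2FC of Itgb1 was −0.0035 (SE 0.05). The ratio of Itga4 to Itgb1 had a median of 0.128 in EAE and 0.103 in PBS-treated mice, with overlapping ranges of 0.0825–0.158 and 0.0887–0.177. Itga6, the α chain of laminin receptors, had FPKM values of 5.57–8.84 (median 6.74) in EAE and 5.19–7.63 (median 6.28) in PBS libraries. EAE 2, EAE 3 and EAE 5 lay above all PBS libraries, and the log2FC of Itga6 was 0.08 (SE 0.10). The ratio of Itga6 to Itgb1 was 0.269–0.433 and 0.250–0.373, respectively.

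Itgav and Itgb5 form the vitronectin receptor αvβ5, which phagocytes use to take up dying cells with the bridge protein Mfge8. Itgav had an FPKM of 19.1 in the lowest, 20.0 in the median and 26.6 in the highest EAE library and of 21.2, 22.5 and 25.6 in the PBS libraries. EAE 1, 2, 3, 6, 7 and 8 were below all PBS libraries, EAE 5 lay within the PBS range and EAE 4 was the highest of all 16, so the groups overlapped through EAE 4 and EAE 5. The log2FC of Itgav was −0.17 (SE 0.07). Itgb5 varied more, with FPKM values of 10.3–20.3 (median 12.2) in EAE and 12.6–20.6 (median 14.2) in PBS libraries. EAE 1, EAE 4 and EAE 5 and PBS 2 and PBS 4 were high, at 18.5–20.6, and the other 11 libraries ranged from 10.3 to 16.4. EAE 2, 3, 6, 7 and 8 were below all PBS libraries, and the log2FC of Itgb5 was −0.16 (SE 0.15). The ratio of Itgav to Itgb5 overlapped between the groups, at 1.12–1.99 (median 1.58) and 1.16–1.78 (median 1.62).

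Over the 10 genes, 7 had a log2FC above 0 and 3 below 0, with a median of 0.14, against 52.7% above 0 and a median of 0.01 over all mRNAs. By edgeR's quasi-likelihood test 1 of 10 was higher and 0 of 10 were lower at an adjusted p under 0.05. An unadjusted p under 0.05 was found for 2 of 10, against 3118 of all 17885 mRNAs. The counts of the 10 genes were the same with edgeR's exact test, DESeq2 and limma-voom. With both thresholds 0 of 10 were DEmRNAs by any of these tools, against 0.117% of all mRNAs, of which 0.0951% were higher and 0.0224% lower. When single libraries were left out, the genes called were Itgam in all 16 fits and Itgav in the fit without EAE 4, in which 815 of 17853 mRNAs (4.57%) were lower. Nothing is read from these calls either, because the difference between the groups entered the choice of the 10 genes.

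The libraries of a group were not equally alike. Among EAE 6, 7 and 8 and among PBS 5, 7 and 8, the squared difference between 2 libraries was 3.14–3.94 times that of counting noise, and for the other 50 pairs within a group it was 5.84–22.7 times. No label names a batch. Each value was therefore also fitted within these 6 libraries, called the 6 most alike, and within the other 5 of each group. The 6 were picked for small differences within a group, so small SEs and many calls are in part built into the choice. Libraries of different groups were not compared, so EAE 6 to 8 are not shown to be like PBS 5, 7 and 8. Itgam had a log2FC of 0.38 (SE 0.07) in the first set and 0.51 (SE 0.09) in the second, and it was called in the first and not in the second. Itgb2 was at −0.0043 (SE 0.08) and 0.10 (SE 0.09). Itgav had −0.24 (SE 0.03) and −0.13 (SE 0.09), and Itgb5 had −0.22 (SE 0.06) and −0.13 (SE 0.18).

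Itga6 and Itgal differed in sign between the sets. Itga6 had a log2FC of −0.34 (SE 0.06) within the 6 libraries most alike and of 0.33 (SE 0.10) within the others. Itgal had 0.80 (SE 0.25) and −0.13 (SE 0.25), and Itga4 had 0.34 (SE 0.08) and 0.11 (SE 0.16). The difference between the sets was not tested. Within the 6 libraries, Itgam, Itgal and Itga4 were called higher and Itgav, Itgb5 and Itga6 lower, where 11% of the 17239 mRNAs tested were called higher and 13.1% lower. Within the other 10 libraries 0 of the 10 genes were called, against 0.0458% of mRNAs higher and 0.0286% lower.

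**Figure D3:**
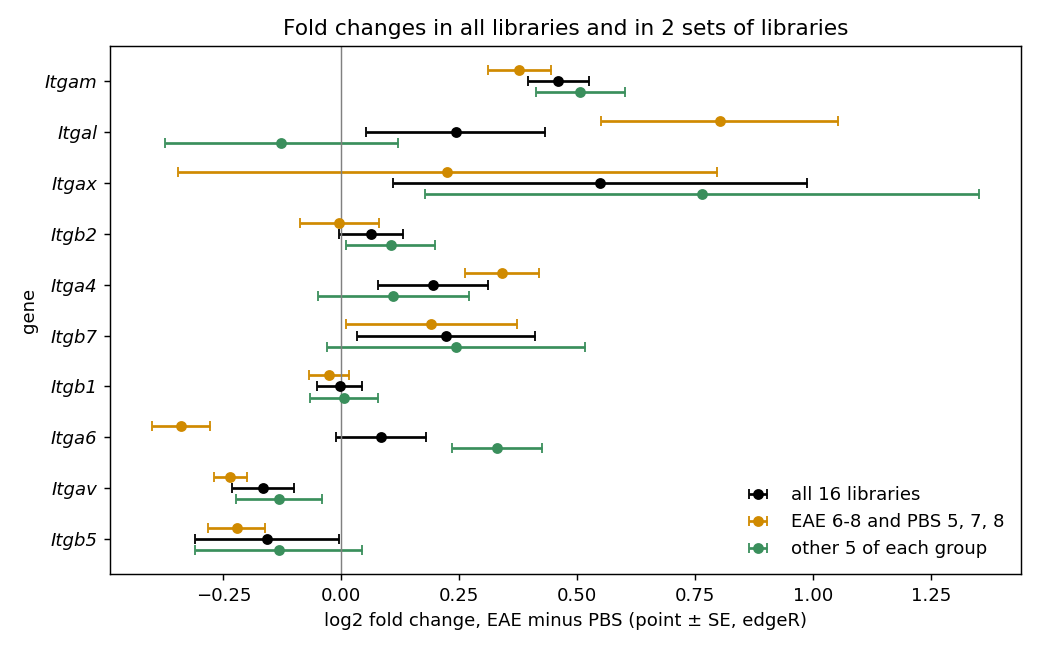
Log2FC of EAE over PBS-treated mice with its SE (edgeR) for each integrin gene in all 16 libraries (black), within EAE 6–8 and PBS 5, 7 and 8 (orange) and within the other 5 libraries of each group (green). Itgam lies between 0.38 and 0.51 in the 3 fits, and Itga6 lies at −0.34 in orange and 0.33 in green.

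Variation among mice of the same group was not used to choose the genes and was examined for 28 relations, 14 per group, on log2(FPKM + 0.01) values of 8 libraries. None passed the adjustment over the 28 relations (exact permutation tests of Pearson's r and Spearman's rho, two-sided), and 5 had an unadjusted p under 0.05 for r. Itgam and Itgb2 had r = 0.62 (p = 0.0981, adjusted p = 0.320, exact permutation test) and rho = 0.57 (p = 0.151) in EAE mice. In PBS-treated mice they had r = 0.59 (p = 0.120, adjusted p = 0.320, exact permutation test) and rho = 0.43 (p = 0.299). Without the 2 libraries farthest from the median of Itgam, r was 0.77 and −0.30, respectively. Itgav and Itgb5 had r = 0.81 (p = 0.0105, adjusted p = 0.144, exact permutation test) and rho = 0.57 (p = 0.151) in EAE mice, and r was 0.49 without the 2 libraries farthest out.

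Itga4 and Itgb1 had r = −0.83 (p = 0.0075, adjusted p = 0.144, exact permutation test) and rho = −0.67 (p = 0.0831) in PBS-treated mice, and r was −0.28 without 2 libraries. Itgal against the summed microglia markers had r = −0.82 in EAE mice (p = 0.0197, adjusted p = 0.144, exact permutation test), with rho = −0.67 (p = 0.0831) and r = −0.51 without 2 libraries. Itgb1 against the summed endothelial markers had r = 0.80 in PBS-treated mice (p = 0.0206, adjusted p = 0.144, exact permutation test), with rho = 0.67 (p = 0.0831) and r = 0.37 without 2 libraries. Itga6 against the same sum had r = 0.69 in EAE mice (p = 0.0474, adjusted p = 0.266, exact permutation test), with rho = 0.69 (p = 0.0694) and r = 0.15 without 2 libraries. Itgam against the microglia sum had r = 0.32 in EAE and −0.01 in PBS-treated mice (exact permutation p = 0.432 and 0.981).

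The mRNAs whose deviations from the group means were most like those of each gene were found among 14759 mRNAs with a mean CPM of at least 1 over the 16 libraries, as a description. High r values are in part built into a search of so many mRNAs, and no shared function is read from them. For Itgam they were Tgfb3 (r = 0.913), Slc11a1 (0.893), Ssr3 (0.853), Slc38a2 (0.853) and Grm2 (0.846). Slc11a1 encodes a metal transporter of phagocytes. For Itgb2 they were Nbr1 (r = 0.928), Tln1 (0.913), Morn3 (0.907), Slc43a1 (0.876) and Gja4 (0.874), of which Tln1 encodes talin, which binds the tails of β chains. Pik3r5, Hdac10 and Ganc were most like Itgal, with r from 0.857 to 0.863, and Arl5c, Cd2ap and 2610020H08Rik most like Itgax, with r from 0.862 to 0.872.

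Tenm2, Zmat1 and Slc37a3 were most like Itga4, with r from 0.941 to 0.947, and Slc26a6, Crtc3 and Mcm7 most like Itgb7, with r from 0.923 to 0.958. For Itgb1 they were Il6st, Angptl4 and Cd9 (r from 0.887 to 0.899), and for Itga6 Apcdd1, Smad6 and Rasa1 (0.876 to 0.918). For Itgav they were Slc20a2, Slc39a12 and Ndufb5 (0.914 to 0.924), and for Itgb5 Selk, Mpv17 and AI464131 (0.908 to 0.935). Between the 10 genes themselves, the highest correlations of these deviations were those of Itgav with Itgb5 (0.76), Itgax with Itgb7 (0.67) and Itgam with Itgb2 (0.56).

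Other genes of the integrin pathway were taken from 6 lists. The lists hold 82 genes and the fit 81 of them. At an adjusted p under 0.05, 4 genes rose and 4 fell (edgeR's quasi-likelihood test), against 0.660% and 1.76% of all mRNAs. The median log2FC of the 81 genes was 0.03, and 23 had an unadjusted p under 0.05 in that test, against 3118 of all 17885 mRNAs. Of the 81 genes, 0 were DEmRNAs by this test, by edgeR's exact test, by DESeq2 or by limma-voom.

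Of 12 other α chains, 2 rose. Itga5, the fibronectin receptor chain, had an FPKM of 6.53 ± 1.17 (SD, n = 8) in EAE and 4.47 ± 0.732 in PBS-treated mice (log2FC 0.49, SE 0.11, adjusted p = 0.0261 in edgeR's quasi-likelihood test). Itga8, which pairs with Itgb1, had 6.01 ± 0.531 and 4.78 ± 0.564 (log2FC 0.28, SE 0.07, adjusted p = 0.0414 in the edgeR test). Itga3 and Itga7, both laminin receptor chains and the most abundant of the α chains that did not pass, had a log2FC of −0.04 (adjusted p = 0.817) and 0.07 (0.576) in edgeR. Of 4 other β chains 0 passed, and 0 had an unadjusted p under 0.05 in edgeR's quasi-likelihood test, where edgeR's exact test, DESeq2 and limma-voom gave 1 unadjusted and 0 adjusted. Itgb8, which activates latent Tgfb1 with Itgav, had an FPKM of 23.0 ± 3.50 and 25 ± 2.39 (log2FC −0.17, adjusted p = 0.291 in edgeR), and Itgb4 had a log2FC of 0.12 (adjusted p = 0.382).

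Of the ligands on cell surfaces and in plasma, 14 of 15 were tested and 2 fell. Thy1, a surface protein of neurons and T cells that Mac-1 and αv integrins bind, had an FPKM of 175 ± 23.7 in EAE and 209 ± 14 in PBS-treated mice (log2FC −0.30, SE 0.07, adjusted p = 0.0337 in edgeR's quasi-likelihood test). Icam5, a ligand of LFA-1 on neurons, had 66.7 ± 6.31 and 75.4 ± 4.07 (log2FC −0.23, SE 0.06, adjusted p = 0.0385 in the edgeR test). Both are made by neurons, whose 12 markers had a median log2FC of −0.12, with 2 of 12 lower. The part of neuronal RNA in these values was not tested. Jam3 and Jam2, adhesion molecules of endothelium, had a log2FC of 0.07 (adjusted p = 0.690) and −0.24 (0.119) in edgeR. Fga, a chain of fibrinogen, stood far from the others with a log2FC of 2.94 (SE 0.90, adjusted p = 0.0850 in edgeR) at a mean CPM of 0.479 and 0.0569, and is named because of its place in the plot of the pathway lists.

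Of 16 matrix and secreted ligands, 1 fell, and 2 were lower by edgeR's exact test, by DESeq2 and by limma-voom. Vtn, which encodes vitronectin, the ligand of Itgav with Itgb5, had an FPKM of 15.1 ± 3.73 in EAE and 20.2 ± 2.91 in PBS-treated mice (log2FC −0.47, SE 0.12, adjusted p = 0.0400 in edgeR's quasi-likelihood test). Vtn is also on the list of pericyte and smooth muscle markers, whose 8 genes had a summed FPKM of 35.1–52.4 (median 37.8) in EAE and 35.7–51.1 (median 48.6) in PBS libraries, with 1 of 8, Vtn itself, lower. The part of these cells in the level of Vtn was not tested. Mfge8 had a log2FC of −0.25 (adjusted p = 0.305 in edgeR) and Edil3, its relative, −0.25 (0.0567).

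Of 19 activators and adaptors, 1 rose and 1 fell. Flna, which encodes filamin A and competes with talin for β chain tails, had an FPKM of 35.2 ± 3.19 and 27.3 ± 2.19 (log2FC 0.32, SE 0.06, adjusted p = 0.0074 in edgeR's quasi-likelihood test). Tln2, the talin of brain and muscle, had 20.6 ± 0.969 and 22.6 ± 1.43 (log2FC −0.19, SE 0.05, adjusted p = 0.0362 in the edgeR test). Cyth1 and Fermt2 had a log2FC of −0.01 (adjusted p = 0.940) and −0.07 (0.614) in edgeR. Of 16 signalling genes, 1 was higher, while edgeR's exact test and DESeq2 gave 2 higher and DESeq2 also 1 lower. Vav1, a guanine nucleotide exchange factor of blood cells that acts below β2 integrins, rose from an FPKM of 2.09 ± 0.341 in PBS-treated to 2.90 ± 0.245 in EAE mice (log2FC 0.42, SE 0.10, adjusted p = 0.0255 in the edgeR test). The kinases Ptk2b and Src had a log2FC of −0.16 (adjusted p = 0.0792) and −0.10 (0.455).

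**Figure D4:**
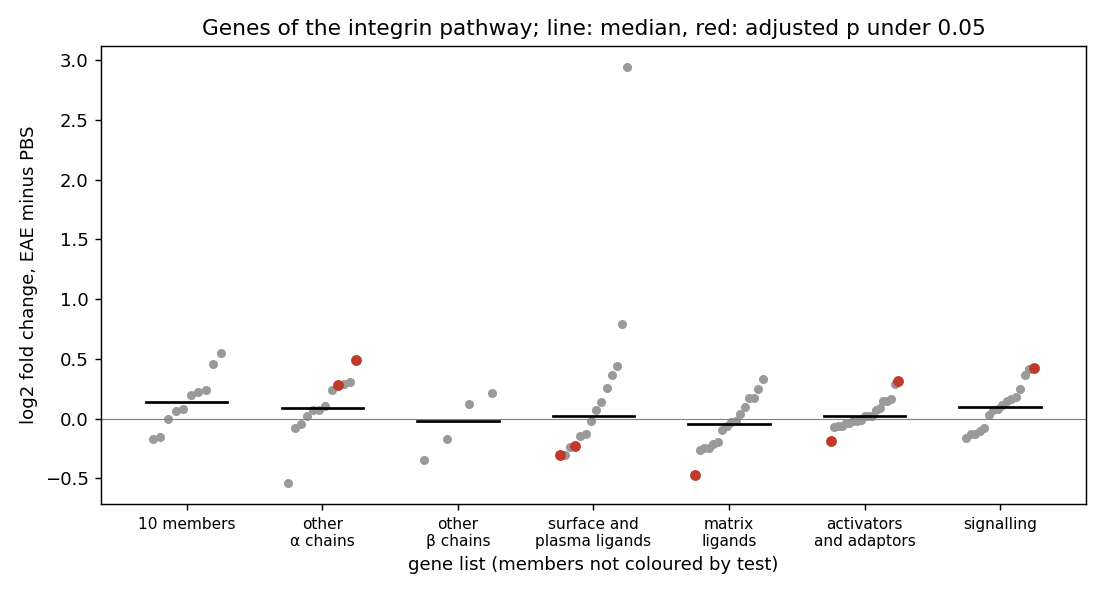
Log2FC of EAE over PBS-treated mice (edgeR) of the 10 integrin genes and of the tested genes of the 6 pathway lists, 1 point per gene, with the median of each list as a line and genes other than the 10 with an adjusted p under 0.05 in red. The 8 red genes lie between −0.47 (Vtn) and 0.49 (Itga5), and the point at 2.94 is Fga.

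These 8 calls depended on single libraries to different degrees. With each library left out in turn, Flna passed in 16 of 16 fits, Vav1 in 13, Itga5 in 12, Thy1 in 8, Tln2 in 6, Icam5 and Itga8 in 5 each and Vtn in 4, and 0 of the 8 passed within the other 5 libraries of each group, where 13 mRNAs passed in all. There the log2FC was −0.40 for Thy1, −0.30 for Icam5, −0.21 for Tln2, 0.49 for Vav1, 0.47 for Itga5, 0.27 for Flna, 0.16 for Itga8 and −0.28 for Vtn, against −0.15, −0.11, −0.16, 0.32, 0.52, 0.39, 0.47 and −0.82 within the 6 libraries most alike. When libraries were scaled by their totals alone, 5 pathway genes were higher and 0 lower, against 4 and 4, and over all mRNAs 226 were higher and 103 lower, against 118 and 315.

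Neutrophils and monocytes carry CD11b, and markers of neutrophils moved with the group. For neutrophils, 4 of 14 genes were higher and 14 of 14 had a log2FC above 0, with a median of 1.08, and their summed FPKM was 54.0–104 in EAE and 23.3–59.6 in PBS libraries. Over all mRNAs, 0.66% were higher at an adjusted p under 0.05 in edgeR's quasi-likelihood test, and 52.7% had a log2FC above 0. For monocytes and macrophages derived from them, 1 of 10 genes had an unadjusted p under 0.05 in edgeR's quasi-likelihood test, against 3118 of all 17885 mRNAs. Of the 10, 0 passed the adjusted threshold in that test, and 1 was higher by each of the other tools. The median log2FC was 0.44, and the sums were 26.5–33.8 and 21.4–28.3. For microglia, 1 of 17 genes, Trem2, was higher, and the median log2FC was 0.16. The gate on intermediate CD45 is meant to leave out neutrophils and monocytes, which carry more CD45, and whether any of these cells had a part in the level of Itgam was not tested.

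Of all 17885 mRNAs, 3118 had an unadjusted p under 0.05 in edgeR's quasi-likelihood test, and the unadjusted counts below are to be read beside this. At an adjusted p under 0.05 in that test, 0.66% of all mRNAs were higher and 1.76% lower. For T and NK cells, 9 genes were tested and 0 passed in edgeR's quasi-likelihood test, with 2 at an unadjusted p under 0.05. Of these genes, 1 was higher by edgeR's exact test and 0 by DESeq2 and limma-voom. Their sums were 2.46–4.16 and 2.18–3.11. For B cells, dendritic cells, border-associated macrophages, endothelium and red blood cells 0 genes passed by any of the 4 tools, and at an unadjusted p under 0.05 there were 0 in edgeR's quasi-likelihood test and, for endothelium, 1 by each other tool. The sums of the B cell markers were 0.345–1.03 and 0.407–0.775, those of dendritic cells 9.06–11.4 and 7.70–10.8, and those of border-associated macrophages 9.79–18 and 9.66–13.8. The endothelial sums were 53.7–79.9 and 47.5–76.5, and those of red blood cells 120–885 and 180–544. Among the other brain cells, 1 of 10 astrocyte genes was higher and 1 lower, 1 of 7 genes of choroid plexus and ependyma was lower, and 0 of 10 oligodendrocyte and 0 of 6 oligodendrocyte precursor genes passed in edgeR, with 4 and 2 at an unadjusted p under 0.05. DESeq2 called 1 oligodendrocyte gene lower, and the exact test and limma-voom called 0. The sums were 945–1327 and 1042–1282 for oligodendrocytes, 103–159 and 114–157 for their precursors and 79.9–140 and 96.1–238 for choroid plexus and ependyma. Trac, Trbc2, Ighm and Igkc have no row in the table. No listed marker that has a row was at 0 in every library, and the part of these cells in the levels of Itgb1, Itga6, Itgav and Itgb5 was not tested.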

How the data were processed

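RNA-seq of brain samples labelled as sorted microglia from 8 EAE and 8 PBS-treated mice was used, with 1 library per mouse, grouped by the sample labels. Per the submitters' processing notes, reads were demultiplexed with bcl2fastq, aligned to GRCm38 with HISAT2 2.1.0, counted with HTSeq 0.11.2 and analysed with DESeq2 1.22.2. The annotation release and strand setting of the counting are not given in the sources used here. The authors deposited raw counts per gene, and FPKM values that they made from the counts by library total and gene length. Of the per-sample columns, 0 were not used.

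Counts were fitted with edgeR 4.0.16 in R 4.3.3 (quasi-likelihood test, TMM normalization, group as the only term, two-sided, Benjamini-Hochberg adjustment) for 17885 mRNAs, those whose counts summed to 16 or more. DEmRNAs had an adjusted p under 0.05 and a |log2FC| over 1. Since FPKM values are scaled by library totals and the log2FC by TMM, they can differ slightly. Under library totals the median log2FC over all mRNAs was 0.06, against 0.01. On simulated counts, 200 of 17774 genes changed by a log2FC of 1.5 were recovered in 98.0% of cases by both thresholds, and 0.508% of calls were on unchanged genes. Smaller changes, such as the log2FC of 0.46 of Itgam, and the unequal likeness of the libraries were not simulated. These shares therefore do not apply to calls of smaller changes. Levels, ratios and exact permutation tests used FPKM, with a pseudocount of 0.01 on the log2 scale (Python 3.11.15, scipy 1.17.1). Alternatives were other tests (DESeq2 1.42.0, limma 3.58.1), scalings, filters and sets of libraries.

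The 10 genes, the pathway lists and the marker lists were chosen with earlier results of these data known. From each pathway list, all genes that passed (at most 6) and the 2 with the highest FPKM that did not are named. Genes most like a member were ranked by the correlation of log2 CPM (prior count 2) deviations from group means. Each library came from a separate mouse, so the spread is that between mice. lncRNAs and circRNAs were not analysed here.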

Additional observations from a re-analysis of the deposited data

Results flagged for a closer look

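Of 38 groups of 8 values, 6 held a library that stood apart from the others by its gap to the nearest value, where chance gives about 1 in 20 groups. The FPKM of Itga4 was 1.72 in EAE 5, below the other EAE libraries (gap over range 0.529). The FPKM of Itgb1 was 18.5 in EAE 2, below the other EAE libraries (0.607). The ratio of Itga4 to Itgb7 was 7.40 in EAE 4, above the other EAE libraries (0.527). In the same library, the ratio of Itgam to Itgb2 was 1.6 (0.623), that of the sum of Itgam, Itgal and Itgax to Itgb2 was 1.68 (0.624), and with Itgad it was 1.74 (0.569). These 3 ratios share Itgam and Itgb2 and are not separate. EAE 4 was the highest EAE library in each of the 3 ratios. Leaving it out therefore cannot make the groups overlap, and this is no check of their separation.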

How the results depend on the processing

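Itgam kept a log2FC of 0.38–0.51 over 12 other settings and was called in 11 of them, and it was 0.42–0.48 and called in all 16 fits that left out 1 library. These fits share libraries. Nothing is read from the calls of the 10 genes, because the difference between the groups entered their choice. The counts of calls over all mRNAs, and of pathway genes, depended on the setting. Against 118 higher and 315 lower mRNAs, edgeR's exact test gave 260 and 485, DESeq2 297 and 602, library totals alone 226 and 103, a term for the libraries most alike 242 and 526, the 6 libraries most alike 1896 and 2251, and the other 5 of each group 8 and 5. Against 17 higher DEmRNAs, the exact test gave 44, the term 34, the 6 libraries 104 and the others 5. Against 4 lower DEmRNAs these were 8 with the exact test, 1 each with library totals, with filterByExpr, with the replicate block and within the other 5 of each group, and 73 within the 6 libraries. Of the 10 genes, 3 higher and 3 lower were called within the 6 libraries, and 0 within the others, against 1 and 0. Of the pathway genes, 13 and 14 were called within the 6 libraries and 0 and 0 within the others, against 4 and 4, and 0 were lower under library totals. For the 6 libraries, picked for small differences within a group, many calls are in part built into the choice. The cause of these differences between settings was not tested.

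With 1 library left out, mRNAs ranged over 39–502 higher and 104–815 lower, DEmRNAs over 11–45 and 1–7, the 10 genes over 1–1 and 0–1, and pathway genes over 2–8 and 0–7. The extremes were 502 and 815 without EAE 4, 39 and 106 without EAE 2 and 40 and 104 without PBS 2. The pathway counts of higher and lower genes were 8 and 7 without EAE 4, 2 and 0 without EAE 1, EAE 2, PBS 2 or PBS 3, 2 and 1 without EAE 6 or EAE 8, 3 and 0 without PBS 5 or PBS 7, 3 and 1 without EAE 3 or PBS 8, and 4 and 1 without PBS 1. Neighbouring pairs that differed numbered 6–7 in EAE and 6–7 in PBS-treated mice.

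The correlations of the deviations of same-numbered libraries were −0.0923, −0.0922, −0.0894, 0.382, −0.105, −0.121, 0.104 and 0.152. Of the 8 pairs 3 were above 0.1 and 5 were not, so the numbers were not taken to pair the mice. With the replicate block, 150 mRNAs were higher and 367 lower, 15 and 1 were DEmRNAs, 1 of the 10 genes was higher, and 4 and 4 pathway genes passed, although Tln2 did not (adjusted p = 0.0572 in edgeR). The replicate block changed no call among the 10 genes. Ratios of raw counts in place of FPKM differ by gene length, with a median of 2.19 in EAE and 1.63 in PBS-treated mice for Itgam over Itgb2. Under the alternatives, 200 of 200 FPKM levels and 276 of 280 log2FC values moved by less than the spread between mice, and 15 of 18 median ratios by more. Most alternatives for FPKM levels left out 1 of 8 libraries or took the median. These cannot move a mean by more than the SD, so nothing is read from that count. Many of the log2FC values also came from fits that left out 1 library. None of the correlations passed the adjusted threshold under an alternative, but 13 changed sign. Without the 2 libraries farthest out, r in EAE mice was −0.39 for Itgav and Itgb1, 0.11 for Itgb2 and the microglia sum and 0.78 for Itgax and that sum. In PBS-treated mice it was −0.30 for Itgam and Itgb2, −0.10 for Itgal and Itgb2, −0.060 for Itgax and Itgb2, 0.18 for Itga4 and Itgb7, −0.25 for Itgav and Itgb1 and −0.18 for Itga6 and Itgb1. Against the microglia sum it was 0.45 for Itgam, 0.56 for Itgal and 0.24 for Itgax, and on log2 CPM r was 0.13 for Itgam and that sum. Leaving out the libraries farthest out narrows the range of values.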
